A study of Mus musculus with 39 samples.

Results

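The genes described here are 10 genes of intestinal smooth muscle, Acta2, Myh11, Des, Tagln, Cnn1, Actg2, Lmod1, Synm, Mylk and Smtn, taken as a named list from the 49585 genes of each count table. All 10 were found in the tables, and all 10 passed the filter on low counts that left 16327 genes for testing. RNA was sequenced with a stranded mRNA kit in 39 libraries from intestinal tumours and the unaffected tissue around them, from C57BL/6 mice that all carried ApcMin/+, a truncating Apc mutation under which adenomas form in the gut. Of the libraries, 17 from tumours and 6 from non-tumour tissue came from ApcMin/+ mice homozygous for the ex allele of Adam17 (ex/ex), and 12 from tumours and 4 from non-tumour tissue came from ApcMin/+ mice with wild-type Adam17. The ex allele is known as a hypomorphic allele, which leaves little of the membrane protease ADAM17, and the series title links ADAM17 to tumours driven by EGF receptor and IL-6 signals. The labels give neither the age nor the sex of the mice, do not say which libraries share an animal, and do not say how much of the gut wall was taken with each piece.

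Smooth muscle of the gut forms the outer layers of the wall and the thin muscularis mucosae that lies directly under the crypts, and single smooth muscle cells run up into the villi. The cells contract when calcium and calmodulin switch on myosin light chain kinase, which phosphorylates the myosin light chain and lets smooth muscle myosin pull on actin. Their contractile genes are transcribed together by serum response factor (SRF), which binds CArG boxes, with its partner myocardin. Acta2 is also made by pericytes, vascular muscle and myofibroblasts. Actg2, Des, Synm and Smtn are used as markers of mature muscle, but they are not all limited to the muscle of the gut wall. In tissue pieces such as these, fewer muscle cells and less muscle RNA per cell cannot be told apart.

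Because many of the members are known targets of SRF, the start regions of the members were searched for the CArG box, which is CC, then 6 bases that are each A or T, then GG, and which reads as the same motif on both strands. RefSeq start windows on GRCm38.p6, of 250 bases before and 50 after a start, were given for 7 members (Acta2, Des, Cnn1, Lmod1, Synm, Mylk and Smtn). A full match stood in 0 of these 7 windows, against 1.63% of all 32851 windows. With 1 inner base allowed to be G or C, 2 of the 7 windows held a match (Acta2 and Synm), against 9.98% of all windows. The sites are shown in capitals, 5′ to 3′ on the strand of the gene, and Des is shown as a muscle gene in whose window no such letters were found. For Synm and Des the 250 bases before the start are printed, and the last 50 bases of the window, which were searched too, are not.
Acta2 site 1, minus strand, chr19:34255438-34255467: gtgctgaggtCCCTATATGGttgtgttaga
Acta2 site 2, minus strand, chr19:34255388-34255417: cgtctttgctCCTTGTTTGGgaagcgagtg
Synm, minus strand, chr7:67759743-67759992: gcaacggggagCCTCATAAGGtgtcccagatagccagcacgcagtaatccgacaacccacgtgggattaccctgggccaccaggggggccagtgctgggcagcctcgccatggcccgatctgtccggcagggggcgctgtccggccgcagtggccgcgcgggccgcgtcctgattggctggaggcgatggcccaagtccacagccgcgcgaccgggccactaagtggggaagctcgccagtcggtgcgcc
Des, plus strand, chr1:75360042-75360291: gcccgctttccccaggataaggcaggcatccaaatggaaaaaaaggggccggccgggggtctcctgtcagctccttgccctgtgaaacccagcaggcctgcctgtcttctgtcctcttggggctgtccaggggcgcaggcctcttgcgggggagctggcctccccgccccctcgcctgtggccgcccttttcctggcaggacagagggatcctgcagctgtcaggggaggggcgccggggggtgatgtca
The Acta2 sites began at -84 and -34 from the RefSeq start, and GENCODE M21 also places them inside the first exon of a longer Acta2 transcript (34255290 to 34255590). The Synm site began at -239, in a stretch that GENCODE M21 also gives to an exon of Gm45102 on the opposite strand. A match of letters is a description of the window and no measurement of binding, and boxes outside these windows were not searched.

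The libraries held 438639 to 11112321 gene counts. Replicate 1 of wild-type non-tumour tissue was the lowest, and the other 38 held at least 5668185. In that library the 10 genes rested on 4 (Smtn) to 73 (Mylk) counts each, so its single values are imprecise. Adam17, the targeted gene, averaged 23.7 ± 5.6 counts-per-million (CPM, from TMM-scaled library sizes) in ex/ex tumours, 11.05 ± 1.87 in ex/ex non-tumour tissue, 54.7 ± 12.9 in wild-type tumours and 42.2 ± 25.0 in wild-type non-tumour tissue (SD, n = 17, 6, 12 and 4). It was lower in ex/ex by 1.21 ± 0.14 (log2 ± SE; edgeR adjusted p = 7.25e-08) in tumours. The shallow library, labelled wild-type non-tumour, had 6.06 CPM of Adam17, the worth of 1 count and below every ex/ex library, so it could not be checked against its label.

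As levels per kilobase of annotated exon, the actins and Tagln stood at the top of the list and Smtn, Synm and Lmod1 at the bottom in every group. In ex/ex tumours the mean levels were 86.7 ± 49.9 CPM per kb for Acta2, 77.5 ± 78.2 for Actg2, 68.8 ± 39.8 for Tagln, 38.95 ± 24.39 for Des and 29.4 ± 19.7 for Myh11 (SD, n = 17). In the same tumours Mylk was at 28.4 ± 12.4 CPM per kb, Cnn1 at 17.7 ± 15.2, Smtn at 6.60 ± 2.68, Synm at 4.82 ± 3.75 and Lmod1 at 3.17 ± 1.87. Wild-type tumours had the same order at higher mean levels, from 144 ± 56 CPM per kb for Acta2 and 140.4 ± 64.7 for Actg2 to 5.72 ± 2.58 for Lmod1 (SD, n = 12). In wild-type tumours neighbours in this order differed by less than 1 SD, other than Tagln and Des, Cnn1 and Smtn, and Smtn and Synm. In non-tumour tissue Tagln stood above Actg2: the ex/ex means were 70.5 ± 31.1 CPM per kb for Tagln and 55.5 ± 34.4 for Actg2 (SD, n = 6). The wild-type non-tumour means were 120.4 ± 43.9 for Tagln and 66.7 ± 19.2 for Actg2 (SD, n = 4). Exon lengths were those of all annotated exons together, so genes with several transcripts, such as Mylk, can be understated on this scale. Acta2 and Actg2 encode near-identical actins, and reads that aligned to more than 1 place (29.1 to 56.5% of the counts in a table) were not assigned to genes, so both levels are uncertain. Tagln shares exon sequence with Pcsk7 on the opposite strand, Synm with Ttc23 and Smtn with Gm11946, and the strand setting of the counting is not given in the sources used here.

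**Figure D1:**
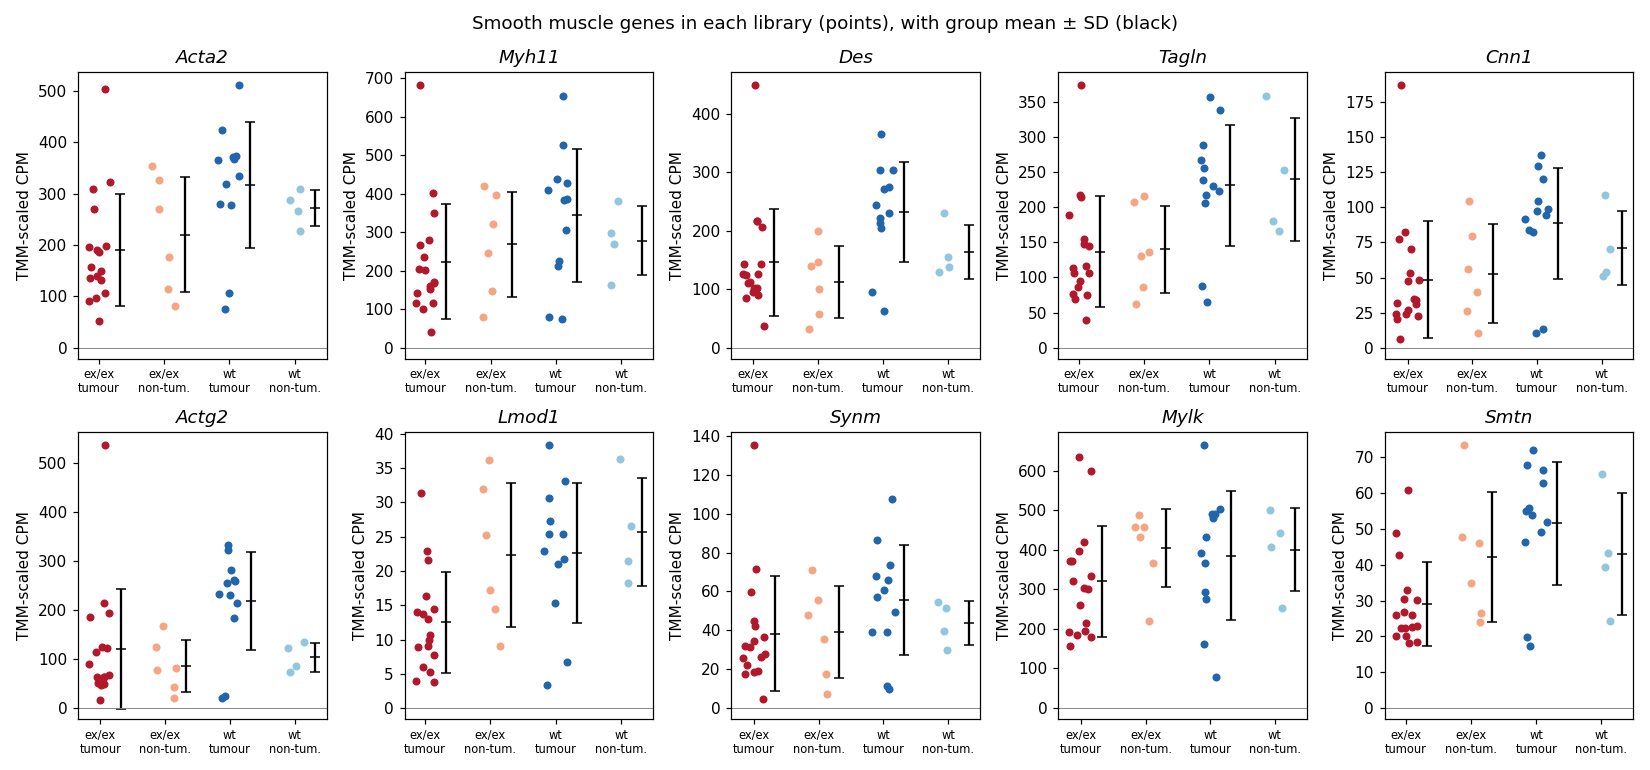
CPM of each of the 10 genes (y axis, TMM-scaled) in every library, by group, with the group mean and SD beside the points. For each gene the points of ex/ex tumours spread around a lower median than those of wild-type tumours, and wild-type tumours 1 and 4 lie far below the rest of their group. Ex/ex tumour 15 is the highest of its group for every gene, although ex/ex tumour 2 is close to it for Mylk (598 against 635 CPM) and Smtn (49.0 against 60.8 CPM).

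The question of the ADAM17 genotype in tumours was addressed by ex/ex tumours against wild-type tumours. The test was edgeR's quasi-likelihood test, with p-values adjusted over all tested genes and a threshold of 0.05. Here 5 of the 10 genes passed, all of them lower in ex/ex (Acta2, Des, Tagln, Lmod1 and Smtn), and 0 were higher. Over all 16327 genes, 33.3% passed in either direction, 18% lower and 15.2% higher. All 10 members had a negative log2 fold change, from -0.87 to -0.27 with a median of -0.75, while the median over all tested genes was -0.014. At an unadjusted p under 0.05 there were 7 members.

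Among the thin filament genes, Acta2, the general smooth muscle actin, was at 52.1, 158 and 503 CPM in ex/ex tumours (lowest, median and highest of 17) and at 75.8, 349 and 512 CPM in wild-type tumours (of 12). The ranges overlapped, but 16 of 17 ex/ex tumours lay below the wild-type median. The log2 fold change was -0.73 ± 0.27 (SE; edgeR adjusted p = 0.0322). Actg2, the visceral actin that is the main isoform of gut muscle, was at 16.2, 66.7 and 537 CPM in ex/ex tumours and at 19.9, 244.3 and 334 CPM in wild-type tumours. Its log2 fold change of -0.86 ± 0.39 did not pass the test (edgeR adjusted p = 0.0851). Tagln encodes transgelin, a small actin-binding protein. It was at 39.1, 114 and 374 CPM in ex/ex tumours, against 65.7, 234.4 and 356 CPM in wild-type tumours, and fell by 0.76 ± 0.26 on the log2 scale (edgeR adjusted p = 0.0215).

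Cnn1, the calponin that slows actomyosin, was at 6.20, 33.8 and 187 CPM in ex/ex tumours and at 10.2, 95.7 and 137 CPM in wild-type tumours. Its log2 fold change of -0.87 ± 0.36 was the largest in size of the 10 and did not pass the test (edgeR adjusted p = 0.0602). Lmod1, leiomodin, starts new actin filaments in smooth muscle. It was at 3.75, 10.6 and 31.3 CPM in ex/ex tumours and at 3.38, 24.1 and 38.4 CPM in wild-type tumours, and fell by 0.86 ± 0.29 (edgeR adjusted p = 0.0222). Smtn, smoothelin, is an actin-binding protein of contractile cells. It was at 18.03, 25.9 and 60.8 CPM in ex/ex tumours, against 17.3, 54.4 and 72.1 CPM in wild-type tumours. Smtn had the smallest adjusted p of the 10, at -0.83 ± 0.20 (edgeR adjusted p = 0.00188). For Cnn1, Lmod1 and Smtn alike, 16 of 17 ex/ex tumours lay below the wild-type median.

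Neither motor gene passed. Myh11, the smooth muscle myosin heavy chain, was at 41.6, 171 and 682 CPM in ex/ex tumours and at 75.4, 385 and 653 CPM in wild-type tumours, a log2 fold change of -0.62 ± 0.31 that did not pass the test (edgeR adjusted p = 0.116). Mylk, the myosin light chain kinase, was at 157, 304 and 635 CPM in ex/ex tumours and at 77.8, 412 and 664 CPM in wild-type tumours. Its log2 fold change was -0.27 ± 0.23 (edgeR adjusted p = 0.372). Mylk also has a long form in epithelium and endothelium, which these gene counts do not separate from the muscle form.

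Of the intermediate filament genes, Des, desmin, was at 37.3, 124 and 449 CPM in ex/ex tumours and at 62.6, 236.8 and 366 CPM in wild-type tumours. It fell by 0.67 ± 0.27 on the log2 scale, at the edge of the threshold (edgeR adjusted p = 0.0492). Synm, synemin, which links desmin filaments to attachment sites, was at 4.80, 31.3 and 136 CPM in ex/ex tumours, against 9.60, 58.9 and 108 CPM in wild-type tumours. Its log2 fold change of -0.54 ± 0.34 did not pass the test (edgeR adjusted p = 0.220).

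These calls depended on single libraries and on what else entered the model. With each library left out in turn, 2 to 8 members passed. The count was 2 without wild-type tumour 11 (Tagln and Smtn), 3 without wild-type tumour 12 or any of ex/ex tumours 4, 5, 8, 9, 10 and 11, and 8 without ex/ex tumour 15, when Myh11, Cnn1 and Actg2 passed as well. It was 7 without wild-type tumour 1 or 4. Des was called in 10 of the 39 such fits, Acta2 in 31, Lmod1 in 38 and Tagln in 39. The calls over all genes moved too, from 5429 of 16327 in the full fit. They were 4598 of 16284 without wild-type tumour 11 and 5303 of 16320 without ex/ex tumour 15. Without wild-type tumour 1 they were 6721 of 16280, and without wild-type tumour 4 they were 7464 of 16248. With the mean log2 CPM of 8 B cell genes as a covariate, 0 of the 10 passed and the 5 called genes lay at -0.148 to -0.056, although 3439 genes of the series still passed. B cell genes summed to at least 1000 CPM in 15 of 17 ex/ex tumours and 3 of 12 wild-type tumours. That covariate thus went largely with genotype, and the fit cannot tell the 2 apart. Covariates for position along the gut were the mean log2 CPM of 6 proximal genes (Gata4, Pdx1, Onecut2, Slc40a1, Cybrd1 and Lct) and of 5 distal genes (Fabp6, Slc10a2, Slc51a, Slc51b and Fgf15). With them 0 of the 10 passed as well, and 1896 genes did. Wild-type tumour 4 was low for both lists (130 and 11.3 CPM) and for epithelial genes (480 CPM). These covariates can thus follow epithelial content as well as position, and the 2 were not told apart. limma-voom with sample quality weights called 10 of 10, in a fit that called 11850 of the 16327 genes.

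**Figure D2:**
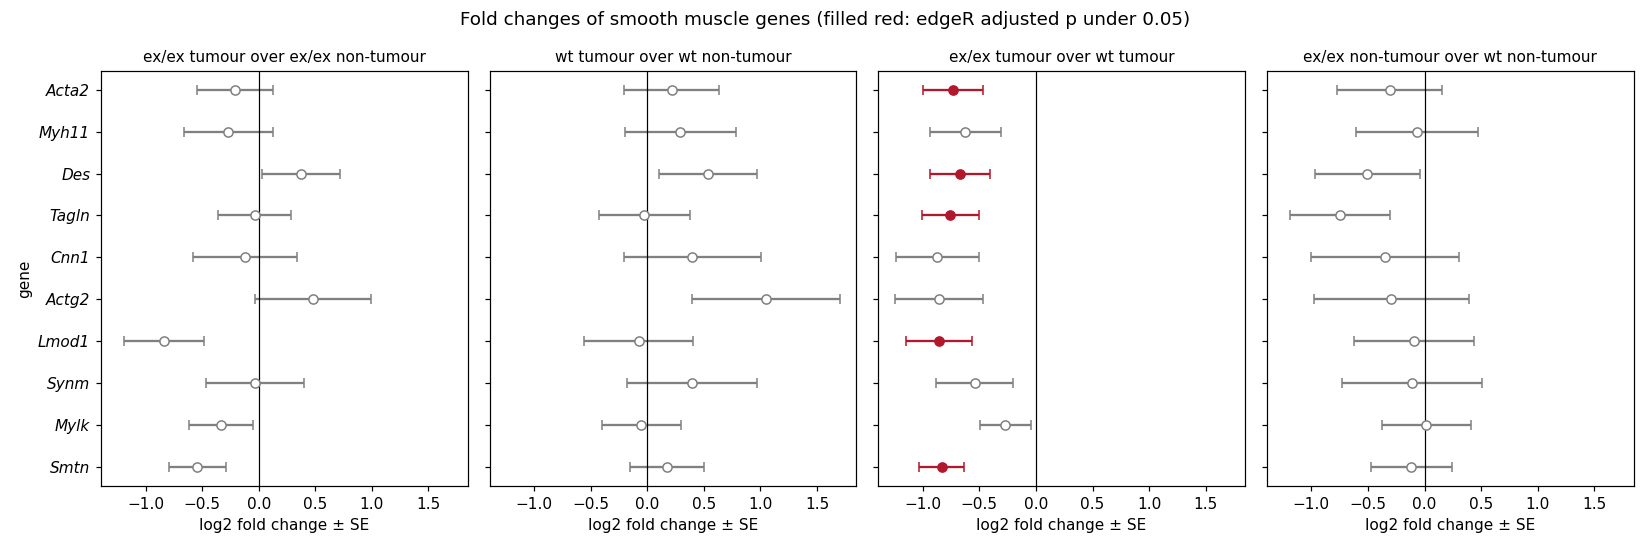
Log2 fold changes with SE (x axis) of the 10 genes (rows) in 4 comparisons; filled red points passed an edgeR adjusted p of 0.05. All 10 lie left of 0 in ex/ex against wild-type tumours, with 5 filled, and none is filled in the other 3 panels.

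The libraries behind these differences could be read from the sum of the 10 genes. It was 404, 1007 and 3595 CPM in ex/ex tumours (lowest, median and highest), 550, 1437 and 2081 CPM in ex/ex non-tumour tissue, 511, 2194 and 3229 CPM in wild-type tumours, and 1479 to 1828 CPM in the 4 wild-type non-tumour libraries. Members were high or low together in the same libraries. Ex/ex tumour 15 was the highest of its group for 10 of the 10 genes, and ex/ex tumour 7 the lowest for 9. Wild-type tumours 1 and 4 were the bottom 2 of their group for all 10, and wild-type tumour 11 was among the top 2 for all 10. In ex/ex non-tumour tissue, replicate 5 was lowest and replicate 1 second lowest for all 10 genes, and replicates 4 and 6 were the top 2 for all 10.

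B cell genes differed between the same tumours, mostly in the opposite direction. The summed CPM of 8 B cell genes (Cd79a, Cd79b, Ms4a1, Pax5, Cr2, Fcer2a, Cd22 and Blk) was 12.1, 2160.0 and 3557 in ex/ex tumours, 25.2 to 49.6 in ex/ex non-tumour tissue, 9.44, 17.9 and 2980 in wild-type tumours, and 24.9 to 90.8 in wild-type non-tumour tissue. It was at or above 1000 CPM in 15 of 17 ex/ex tumours and in 3 of 12 wild-type tumours. Wild-type tumours 1 and 4, the lowest for muscle genes (511 and 513 CPM), were B cell rich, at 2440 and 2980 CPM. The link was not strict: wild-type tumour 7 had 1556 CPM of B cell genes and 2321 CPM of muscle genes, and ex/ex tumour 15 had 1886 and 3595 CPM. Ex/ex tumour 2, with 12.1 CPM of B cell genes, had 2169 CPM of muscle genes, within the range of the wild-type tumours under 1000 CPM of B cell genes (1602 to 3229 CPM). Ex/ex tumour 1, the other ex/ex tumour under 1000 CPM (335 CPM of B cell genes), had 1319 CPM of muscle genes and lay below that range. The epithelial list (Epcam, Cdh1, Vil1 and 5 others) summed to 2498, 8369 and 21470 CPM in ex/ex tumours and to 480, 15309 and 18413 CPM in wild-type tumours, and wild-type tumour 4 was its lowest library. Ex/ex tumours 1 and 2 had the highest epithelial sums of all tumours (21470 and 20054 CPM). Both are among the 5 libraries that look male by Xist and Ddx3y. They thus differed from the wild-type tumours poor in B cell genes in more than genotype. The part of lymphoid tissue in the difference between genotypes was not tested. The covariate above went largely with genotype among tumours, so that fit cannot tell lymphoid content and genotype apart. No B cell marker was at 0 in every library.

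**Figure D3:**
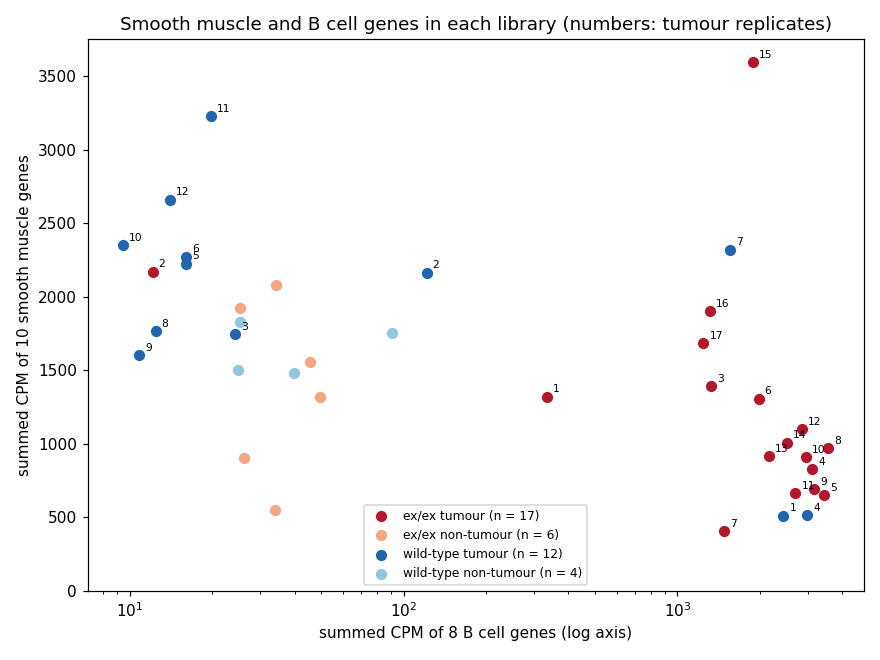
Summed CPM of the 10 muscle genes (y axis) against summed CPM of 8 B cell genes (x axis, log scale) for each of the 39 libraries, coloured by group, with tumours numbered by replicate. Most ex/ex tumours lie at the lower right with wild-type tumours 1 and 4; ex/ex tumour 15 and wild-type tumour 7 are rich in both.

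For tumours against the tissue around them, 0 of the 10 genes passed in ex/ex, where 47.1% of all tested genes did (edgeR, adjusted p under 0.05). At an unadjusted p under 0.05 there were 2, Lmod1 and Smtn. Lmod1 was at 3.75, 10.6 and 31.3 CPM in ex/ex tumours and at 9.03, 21.2 and 36.2 CPM in ex/ex non-tumour tissue (lowest, median and highest). The log2 fold change of Lmod1 was -0.84 ± 0.36 and lay at the threshold (edgeR adjusted p = 0.0501). Smtn was at 18.03, 25.9 and 60.8 CPM in ex/ex tumours and at 24.1, 40.4 and 73.4 CPM in ex/ex non-tumour tissue, a log2 fold change of -0.54 ± 0.25 (edgeR adjusted p = 0.0721). Des and Actg2 had positive values, 0.38 ± 0.35 and 0.48 ± 0.51 (edgeR adjusted p = 0.372 and 0.442). The median of the 10 was -0.17 and that of all genes -0.031. Lmod1 passed in 9 of the 39 fits that left out 1 library, those without ex/ex tumour 1, 2, 15 or 16, ex/ex non-tumour 1 or 5, or wild-type tumour 1, 4 or 11, with log2 fold changes of -1.002 to -0.649 over all 39. Smtn passed in 4 of these fits, without ex/ex tumour 2 or 15 or ex/ex non-tumour 1 or 5.

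In wild-type mice 0 of the 10 genes passed between tumours and non-tumour tissue, against 5.05% of all tested genes (edgeR), and 0 had an unadjusted p under 0.05. Actg2 had the largest value. It was at 19.9, 244.3 and 334 CPM in wild-type tumours and at 72.7, 136, 122 and 84.9 CPM in the 4 wild-type non-tumour libraries. In 10 of the 12 tumours Actg2 was above all 4 non-tumour libraries, and tumours 1 and 4 were below them. The log2 fold change of 1.05 ± 0.65 did not pass (edgeR adjusted p = 0.361). Des was at 62.6, 236.8 and 366 CPM in wild-type tumours and at 230.1, 155, 130.1 and 138.5 CPM in wild-type non-tumour tissue, a log2 fold change of 0.54 ± 0.43 (edgeR adjusted p = 0.499). limma-voom called 1 member in each tumour against non-tumour comparison, Des both times, at 0.80 in ex/ex (limma adjusted p = 0.00624) and 0.82 in wild type (limma adjusted p = 0.0459). Over all 16327 genes limma-voom called 11797 in ex/ex and 6126 in wild type, so 1 of 10 lay below the share of all genes in both. The comparisons of the genotypes share their tumour and non-tumour libraries with these.

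In non-tumour tissue 0 of the 10 genes passed between ex/ex and wild type, with 0 at an unadjusted p under 0.05, against 1.42% of all tested genes (edgeR). Log2 fold changes ran from -0.75 to 0.015, and 9 of 10 were negative. limma-voom called 1 member, and 1597 of the 16327 genes. The test of whether the tumour effect differed between the genotypes (interaction) also gave 0 of 10 members, with 0 at an unadjusted p under 0.05, against 0.202% of all genes (edgeR). limma-voom called 1 member for the interaction, in a fit that called 8459 of the 16327 genes. All 10 interaction values were negative, from -0.76 to -0.0072. A lower value in ex/ex tumours is thus not shown to be particular to tumours.

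The make-up of the set was described by setting each gene against the mean log2 CPM of the 10 in its library. This takes out shifts that all 10 share, but not differences within the set that vary with the amount of muscle. On this relative scale Des was at 0.80 ± 0.17 in ex/ex tumours, against 0.20 ± 0.16 in ex/ex non-tumour tissue, a difference of 0.60, and the groups did not overlap (0.49 to 1.15 in tumours, 0.036 to 0.397 in non-tumour tissue). Lmod1 went the other way, at -2.71 ± 0.23 in ex/ex tumours, against -2.02 ± 0.17 in ex/ex non-tumour tissue, a difference of -0.69 with no overlap (SD, n = 17 and 6). In wild type the same differences were 0.30 for Des and -0.46 for Lmod1, with overlap. These 2 genes were picked after the values of all 10 were seen, so no test is given. The other members overlapped between these ex/ex groups on the relative scale. In plain CPM Des and Lmod1 overlapped between ex/ex tumours and ex/ex non-tumour tissue. No share of all genes without overlap was computed, and 47.1% of all tested genes passed in edgeR between these groups.

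**Figure D4:**
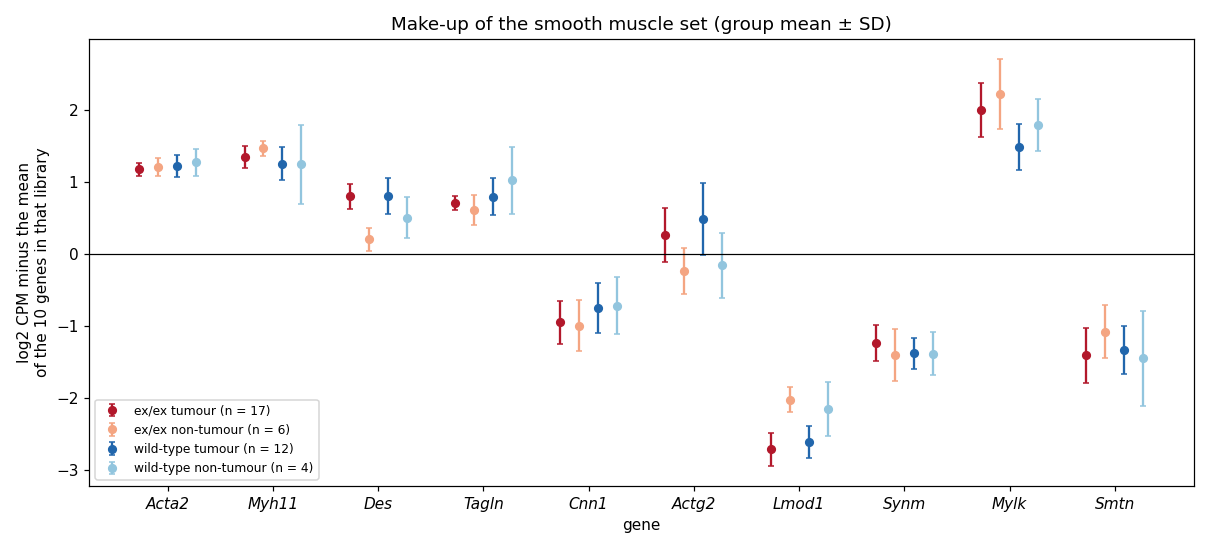
Log2 CPM of each gene minus the mean log2 CPM of the 10 genes in the same library (y axis), as group mean with SD. Des lies higher and Lmod1 lower in both tumour groups than in the non-tumour tissue of the same genotype. The ex/ex groups do not overlap for these genes on this scale, but they do in plain CPM. No share of all genes without overlap was computed.

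The ratio of Actg2 to Acta2 counts sets the visceral against the general actin within a library and needs no normalization. Its geometric mean was 0.528 in ex/ex tumours, against 0.366 in ex/ex non-tumour tissue. The log2 difference was 0.53 (exact permutation p = 0.0153, 0.0612 after adjustment over 4 comparisons), so it did not pass. In wild type the ratio was 0.597 in tumours and 0.374 in non-tumour tissue, a log2 difference of 0.68 (exact permutation p = 0.0901, adjusted 0.180). Wild-type tumours 1 and 4 had ratios of 0.324 and 0.188, and the other 10 had 0.621 to 0.901. Without wild-type tumour 4 the log2 difference was 0.83 (exact permutation, adjusted p = 0.0352). The ex/ex difference passed without ex/ex tumour 7, 12 or 13 or ex/ex non-tumour 2 or 6, at 0.56 to 0.63 (exact permutation, adjusted p = 0.0264 to 0.0486). Between genotypes the log2 difference was -0.18 in tumours (permutation test, adjusted p = 0.510) and -0.029 in non-tumour tissue (exact permutation, adjusted p = 0.933).

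**Figure D5:**
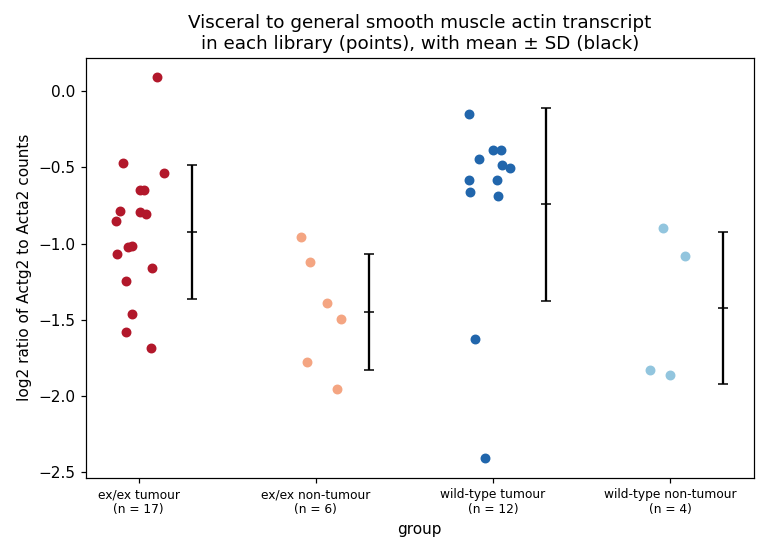
Log2 ratio of Actg2 to Acta2 counts (y axis) in each library by group, with mean and SD. Tumour means lie above the non-tumour means of the same genotype, and wild-type tumours 1 and 4 lie below the other 10 wild-type tumours.

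Across all 39 libraries, with each gene's log2 CPM set against its own group's mean, every member followed the mean of the other 9. Pearson's r was 0.99 for Acta2, 0.98 for Cnn1 and 0.97 for Synm, and lowest for Smtn (0.88) and Mylk (0.87). The libraries share their scaling to depth, so these values are descriptions. Among 13623 other genes the 8 most like the mean of the members were Myl9 (r = 0.985), Tpm2 (0.977), Pgm5 (0.967), Dmpk (0.965), Slc24a3 (0.949), Jph2 (0.945), Sh3bgr (0.944) and Hspb6 (0.941). Myl9 encodes the myosin regulatory light chain that Mylk phosphorylates, and Tpm2 a tropomyosin of the thin filament. In ex/ex against wild-type tumours Myl9 fell by 0.84 ± 0.32 (edgeR adjusted p = 0.0420) and Dmpk fell by 0.99 ± 0.30 (edgeR adjusted p = 0.0121), and the other 6 had -0.83 to -0.59 and did not pass. Over all tested genes 18% were lower, not far from the share of these 8. The 8 were picked for following the members in these same libraries, so their values are no separate evidence. Myl9 passed in 19 of the 39 fits that left out 1 library, at -1.03 to -0.75 over all 39.

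The regulators of smooth muscle transcription were mixed. In ex/ex against wild-type tumours 4 of the 8 listed were lower and 0 higher, against 18% lower and 15.2% higher of all tested genes. Myocd, the SRF coactivator myocardin, averaged 0.847 ± 0.475 CPM in ex/ex tumours and 1.84 ± 1.22 CPM in wild-type tumours, and fell by 1.13 ± 0.27 (edgeR adjusted p = 0.00167). Foxf1 and Foxf2, forkhead factors of the gut mesenchyme, fell by 0.56 ± 0.14 and 0.86 ± 0.17 (edgeR adjusted p = 0.00287 and 0.000163). Nkx2-3, a homeobox factor of gut and spleen mesenchyme, fell by 0.51 ± 0.20 (edgeR adjusted p = 0.0417). The call of Nkx2-3 was lost without wild-type tumour 4 (-0.33, edgeR adjusted p = 0.139), and at -0.53 to -0.48 without any one of wild-type tumours 3, 5, 7, 9, 11 and 12 or ex/ex tumours 4, 5, 8, 9, 10, 11, 14 and 17. Srf itself averaged 45.9 ± 6.1 CPM in ex/ex tumours and 45.6 ± 3.2 CPM in wild-type tumours, a log2 fold change of 0.011 ± 0.087 (edgeR adjusted p = 0.938). Mrtfa and Mrtfb, the myocardin-related coactivators that actin dynamics control, had 0.34 ± 0.14 and -0.14 ± 0.079 and did not pass, nor did Gata6 at -0.30 ± 0.34. With the B cell covariate Foxf2 still passed (-0.80, edgeR adjusted p = 0.0116), as did Nkx2-3 (-0.68, edgeR adjusted p = 0.0475). In that fit Mrtfa was lower (-0.25, edgeR adjusted p = 0.0440) and Gata6 higher (1.0001, edgeR adjusted p = 0.0400), each opposite in sign to its value without the covariate, while Myocd was at -0.95 (edgeR adjusted p = 0.0528) and Foxf1 at -0.48 (edgeR adjusted p = 0.0650).

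Within ex/ex mice the regulators split by direction between tumour and non-tumour tissue, with 2 of the 8 higher and 5 lower, while 47.1% of all tested genes passed. Srf and Mrtfa rose by 0.42 ± 0.11 and 0.98 ± 0.19 (edgeR adjusted p = 0.00318 and 0.000135). Myocd fell by 1.54 ± 0.32, to 0.847 ± 0.475 CPM in ex/ex tumours against 2.45 ± 0.94 CPM in ex/ex non-tumour tissue (edgeR adjusted p = 0.000316). Mrtfb fell by 0.59 ± 0.10, Foxf2 by 0.76 ± 0.21, Gata6 by 1.32 ± 0.40 and Nkx2-3 by 0.58 ± 0.24 (edgeR adjusted p = 1.38e-05 to 0.0492). Nkx2-3 passed in 12 of the 39 fits that left out 1 library, with log2 fold changes of -0.66 to -0.43 over all 39; the smallest in size was without ex/ex non-tumour 3 (edgeR adjusted p = 0.170). Foxf1 had -0.35 ± 0.18 and did not pass. With the B cell covariate, which nearly separates ex/ex tumours from ex/ex non-tumour tissue, 0 were higher and 2 lower, Myocd and Mrtfb. In wild-type mice 1 of the 8, Foxf1, passed between tumour and non-tumour tissue, with a log2 fold change of -0.83 ± 0.22 (edgeR adjusted p = 0.0213). Without wild-type non-tumour 4 the value for Foxf1 was -0.17 (edgeR adjusted p = 0.743). Between ex/ex and wild-type non-tumour tissue 1 of the 8, Foxf1, was lower, at -1.03 (edgeR adjusted p = 0.0229), against 1.42% of all tested genes. Without wild-type non-tumour 1 and 4 that Foxf1 value was -0.12 and did not pass. It did not pass in the fit of the 2 groups or with limma-voom either.

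Of the other contractile and attachment genes, 23 of 24 listed were tested. In ex/ex against wild-type tumours 12 were lower and 0 higher, against 18% lower of all tested genes. Those with the smallest p were Pdlim7, a PDZ and LIM protein of actin fibres (-1.16 ± 0.19), Actn1, alpha-actinin (-0.85 ± 0.15), Itga7, a laminin receptor of muscle (-0.92 ± 0.20), and Cald1, caldesmon (-0.79 ± 0.19), with edgeR adjusted p of 1.07e-05 to 0.00167. With the B cell covariate 1 of the 23 passed, and with the position covariates 2. In ex/ex tumours against ex/ex non-tumour tissue 1 was higher and 2 lower, while 47.1% of all tested genes passed. Dmd, dystrophin, fell by 1.32 ± 0.20 and Itga7 by 1.07 ± 0.24, and Pdlim7 rose by 0.60 ± 0.25 (edgeR adjusted p = 3.66e-06, 0.000615 and 0.0454). Pdlim7 missed the threshold without any one of ex/ex tumours 12, 15 and 16 or ex/ex non-tumour 1, 2, 3 and 5, at 0.47 to 0.65 (edgeR adjusted p = 0.0509 to 0.140). In wild type 0 of the 23 passed between tumour and non-tumour tissue in edgeR, with 2 at an unadjusted p under 0.05.

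Of 17 channel, receptor and calcium handling genes of muscle, 6 were lower and 0 higher in ex/ex tumours than in ex/ex non-tumour tissue, while 47.1% of all tested genes passed in either direction. P2rx1, an ATP-gated channel, fell by 2.04 ± 0.29, Chrm3, a muscarinic acetylcholine receptor, by 1.93 ± 0.29, and the nitric oxide receptor subunits Gucy1a1 and Gucy1b1 by 1.23 ± 0.19 and 1.05 ± 0.21 (edgeR adjusted p = 1.8e-06 to 0.000228). In wild type 2 of 17 were lower, Gucy1a1 by 1.18 ± 0.25 and Gucy1b1 by 1.15 ± 0.28 (edgeR adjusted p = 0.00371 and 0.0103). Without wild-type non-tumour 4 Gucy1b1 was at -0.92 (edgeR adjusted p = 0.0900). Several of these genes are also expressed by epithelium, platelets or pericytes. In ex/ex against wild-type tumours 4 were lower and 1 higher, near the 18% lower and 15.2% higher of all tested genes. Gucy1b1 fell by 0.76 ± 0.18, Cacna1c, the L-type calcium channel, by 0.80 ± 0.22, Gucy1a1 by 0.54 ± 0.16 and P2rx1 by 0.82 ± 0.25 (edgeR adjusted p = 0.00125 to 0.0118). With the B cell covariate 1 of the 17 was lower and 0 higher.

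Markers of cells that lie in or beside muscle were counted in the same fit, in which 18% of all tested genes were lower between tumours of the genotypes. In ex/ex against wild-type tumours 3 of 4 genes of interstitial cells of Cajal, the pacemaker cells of the gut, were lower. Ano1, their calcium-activated chloride channel, fell by 2.08 ± 0.35 (edgeR adjusted p = 2.14e-05). Prkcq, of the same list, went the other way, with a log2 fold change of 0.50, and did not pass. Whether these genes mark Cajal cells in these tissue pieces was not tested. Of the enteric neuron and glia genes 4 of 14 were lower, a share not far from that of all genes, with Vip at -1.93 ± 0.41 (edgeR adjusted p = 0.000413). All 8 tested pericyte and mural cell genes were lower, with Mcam at -1.10 ± 0.18 (edgeR adjusted p = 1.66e-05), as were 4 of 9 fibroblast genes, 6 of 8 endothelial and 5 of 5 red blood cell genes. Red blood cell genes were also lower in ex/ex non-tumour tissue than in wild type, 5 of 5, while 1.42% of all tested genes passed. Their median log2 fold change was -4.28 there and -4.27 in tumours, so this difference was not particular to tumours. The pericyte, fibroblast and endothelial lists had 0 lower in non-tumour tissue. The summed CPM of the pericyte list was 93.1, 154 and 303 in ex/ex tumours and 199.6, 271 and 374 in wild-type tumours. With the B cell covariate 1 of 4 Cajal cell genes, 0 of 14 neuron and glia genes and 3 of 8 pericyte genes were lower. The B cell list had 2 of 8 higher. Pericytes also make Acta2 and Tagln, and other members may be shared with them. The part of the cells listed here in the differences of the members was not tested, and no gene of these lists was at 0 in every library. Striated muscle genes, which would mark body wall muscle, summed to 11.4, 14.05 and 26.7 CPM in ex/ex tumours (lowest, median and highest), against 21.7, 30.2 and 52.1 CPM in ex/ex non-tumour tissue. They summed to 14.2, 18.7 and 25.2 CPM in wild-type tumours, against 15.7 to 30.3 CPM in wild-type non-tumour tissue. The single genes did not all follow the sum. In ex/ex tumours against ex/ex non-tumour tissue 1 of 8 tested striated muscle genes was higher and 2 lower, while 47.1% of all tested genes passed. Their log2 fold changes were 4 negative and 4 positive, from -2.77 to 2.57. The part of striated muscle in the comparisons of tumour with non-tumour tissue was not tested.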

How the data were processed

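The deposited values were whole-number read counts per gene, 1 table per library. Per the labels' protocols, TruSeq stranded mRNA libraries were made from 500 ng of RNeasy-purified RNA. The tools were Trimmomatic 0.36, TopHat2 2.0.14 and HTSeq with GRCm38, per the submitters' processing notes. Which HTSeq version and annotation served is not given in the sources used here. IDs were matched without version suffix to GENCODE M21 (49326 of 49585); lines naming no gene were left out (no feature, 3.00 to 13.3% of a table; ambiguous, 0.203 to 0.842%; not unique, 29.1 to 56.5%).

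All 39 libraries entered 1 edgeR 4.0.16 quasi-likelihood fit with 4 groups, TMM and filterByExpr (R 4.3.3). P-values were adjusted by Benjamini-Hochberg over the 16327 genes and called at 0.05. Each SE was computed as log2 fold change divided by the root of its F statistic. CPM uses TMM-scaled library sizes. Ratios used a pseudocount of 0.5 and 2-sided permutation tests, exact where a group held under 10 libraries and otherwise with 100000 resamples. The fit was checked on simulated data.

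The members, lists and the rule for named genes (all members and regulators, up to 4 genes of smallest p per other list, the 8 genes most like the members) were chosen with earlier results of these data known. Adam17 served as label check. One gene of the B cell list is not reported here and was left out of its sums and covariate. Replicates were numbered in accession order and pair nothing. Since no label names an animal, p-values measure the spread between samples, which may be technical. Alternatives were DESeq2 1.42.0, its size factors, limma 3.58.1 (voom), no filter, fits of 2 groups, libraries left out, and covariates.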

Additional observations from a re-analysis of the deposited data

How the results depend on the processing

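Among members called, ex/ex against wild-type tumours gave 3 with no filter on low counts, 0 with the B cell covariate, 0 with the position covariates and 10 with limma-voom, against 5. The calls over all genes moved as well, and the fit with no filter called 4923 of 34856 genes. Without a single library the comparison gave 2 to 8 members, in fits that called 4396 to 7464 genes. DESeq2, its size factors and the fit of the 2 groups gave 4 members each. Those fits called 5793 of 34856, 5269 of 16327 and 4574 of 14714 genes. Leaving out the 5 libraries that look male by Xist and Ddx3y (ex/ex tumours 1 to 3, ex/ex non-tumour 1 and 2) gave 6. That fit called 8048 of 16284 genes, against 5429 of 16327 in the full fit. Ex/ex tumours against non-tumour tissue gave 2 without those 5 libraries, in a fit that called 8105 of 16284 genes. That comparison gave 1 with limma-voom and 0 to 2 without a single library. Wild-type tumours against non-tumour tissue, ex/ex against wild-type non-tumour tissue, and the interaction each gave 1 with limma-voom and 0 without any single library. The cause of these changes was not tested.

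With the B cell covariate, all 8 members with a negative log2 fold change in ex/ex tumours against non-tumour tissue turned positive (Lmod1 0.11, Smtn 0.31, Mylk 0.40, Myh11 0.56, Acta2 0.59, Tagln 0.69, Synm 0.83 and Cnn1 0.93), as did 9 of the 10 interaction values, and between tumours of the genotypes Myh11 (0.064), Cnn1 (0.044), Actg2 (0.11), Synm (0.18) and Mylk (0.34). The B cell sum was at or above 100 CPM in 16 of 17 ex/ex tumours and in 0 of 6 ex/ex non-tumour libraries. The covariate thus nearly separates these 2 groups, and their adjusted values rest on few ex/ex libraries and on the wild-type ones. With the position covariates 7 of the 8 turned positive in ex/ex, from Smtn (0.20) to Synm (0.77), and Lmod1 was at -0.036; limma-voom turned Acta2, Myh11, Tagln, Cnn1 and Synm (0.030 to 0.413), and DESeq2, its size factors and no filter turned Tagln and Synm (0.0076 to 0.025). The position covariates also turned Myh11 (0.021), Cnn1 (0.020), Actg2 (0.060), Synm (0.18) and Mylk (0.20) between tumours of the genotypes. The Actg2 to Acta2 log2 difference ranged, without a single library, from 0.43 to 0.63 in ex/ex and 0.53 to 0.85 in wild type (tumour minus non-tumour), and from -0.33 to -0.13 in tumours and -0.18 to 0.14 in non-tumour tissue (ex/ex minus wild type). A pseudocount of 1 changed no call of the ratio. The regulators were put through the same alternatives after their values were seen, and between tumours of the genotypes Nkx2-3 lost its call with DESeq2, its size factors, no filter and the position covariates. In ex/ex tumours against non-tumour tissue it lost its call in those fits, with the B cell covariate and without the 5 libraries, and with the position covariates Srf (edgeR adjusted p = 0.146), Mrtfa (0.0817), Foxf2 (0.340) and Gata6 (0.700) lost theirs. Foxf1 in wild type lost its call with no filter (edgeR adjusted p = 0.0515), the fit of the 2 groups (0.182), the position covariates (0.144), limma-voom (limma adjusted p = 0.875) and without wild-type non-tumour 1 and 4 (edgeR adjusted p = 0.853). No paired analysis was possible because the labels do not say which libraries share an animal.

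The 4 wild-type non-tumour libraries, 1 of them shallow, limit every comparison with that group. Wild-type non-tumour 4 also differed in make-up, with the highest endothelial, red blood cell, pericyte and fibroblast sums of the 4. Its endothelial list summed to 1141.83 CPM (group median 187.002) and its red blood cell list to 1155.23 CPM (group median 64.1775). Its muscle sum was the lowest of the 4. The part of this make-up in the calls lost without that library (Foxf1 and Gucy1b1 in wild type) was not tested.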
